A study of Bos taurus with 29 samples.

Results

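The messages of 4 genes of the growth hormone and prolactin axes were followed in the arcuate nucleus (ARC) of 29 heifer calves. They were growth hormone (GH1, ENSBTAG00000017220), prolactin (PRL, ENSBTAG00000015274), the growth hormone receptor (GHR, ENSBTAG00000001335) and insulin-like growth factor 1 (IGF1, ENSBTAG00000011082). The deposited table lists 24596 genes by Ensembl identifier alone, and these 4 were taken from it by identifier, whatever their values. The chromosomal position and sequence of the genes were not analysed here.

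The calves were Holstein-Friesian X Angus females, and 1 library of polyadenylated RNA was made from the ARC of each. Of these, 14 were fed a high (HI) and 15 a moderate (MOD) plane of nutrition, which began at 2 weeks of age by the labels (slightly later by the methods of the study) and covered 8 weeks of milk feeding and 11 weeks after weaning, with sampling at 21 weeks. The HI ration held 1.5 kg of milk replacer a day made up in 10 litres, with concentrates to appetite, and was set for a gain of 1.2 kg a day. The MOD ration held 0.5 kg of milk replacer in 4 litres, with 1 kg of concentrates a day, and was set for a gain of 0.5 kg a day. Both groups had hay after weaning. The calves sequenced were those whose weight gain lay near the mean of their group, so that each group is narrower than the herd it came from. Libraries are named by diet and by a number, which follows the order of the calf numbers within the diet. A number shared by an HI and a MOD library does not pair them.

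Growth hormone and prolactin are sister hormones of the anterior pituitary, made by somatotrophs and lactotrophs, and the ARC holds the neurons that govern both, those that release growth hormone-releasing hormone and those that release dopamine, the brake on prolactin. Circulating growth hormone acts through GHR, and in the liver this raises IGF1, which signals back to the hypothalamus and pituitary to lower growth hormone. GHR is also present on neurons of the ARC, and IGF1 is made locally in the brain. The question for each gene was how much of its message the tissue held, how far calves differed, which genes moved together from calf to calf, and whether the diets differed.

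Levels are given as the deposited normalised read count, which is the reads of a gene per 1000000 reads of effective library size. It is not divided by gene length, so levels are compared between calves and not between genes. The libraries held 11040026 to 20255414 reads counted in genes, as recovered from the values, which is fewer than the reads sequenced. A floor of 3 reads, the one-sided 95% upper limit for a count of 0, corresponded to 0.149 to 0.273. Intervals on single values are two-sided 95% exact Poisson intervals and cover counting error only. Over all genes, HI 9 and HI 13 stood apart on the first principal component (37.9% of the variance), while no library batch was given in the labels. As a check, the second component (20.6%) was split at a score of -15, which left 20 above (10 HI and 10 MOD) and 9 below (4 HI and 5 MOD). This line was carried over from earlier work on these data and is not a natural break in the scores. In bulk tissue, fewer cells of a type and less message per cell cannot be told apart. Of the ARC markers that could be identified, AGRP, the agouti-related peptide of the hunger neurons, ranged from 0 to 61.4, and it had no read in HI 3, HI 5, HI 12 and MOD 8. POMC, the melanocortin precursor, had reads in all 29 libraries (12.9 to 214). NPY, the other peptide of those neurons, also had reads in every library (0.369 to 170.4).

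Every library held at least 1 read of growth hormone message, up to 1622 reads. The single read in MOD 9 lay below the floor of 3 reads, so presence in that calf is uncertain. In the HI calves, GH1 ranged from 0.482 to 122 with a median of 31.7 and a mean of 35.4 ± 31.7 (SD, n = 14). In the MOD calves, it ranged from 0.072 to 56.0 with a median of 27.4 and a mean of 26.3 ± 18.3 (SD, n = 15). The 2 diets overlapped through nearly the whole range, since 14 of 15 MOD values lay within the HI range and 12 of 14 HI values within the MOD range.

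The calves at both ends of the GH1 range were the calves at both ends of the PRL range. HI 9 was highest for GH1 at 122 (1622 reads), followed by HI 2 at 78.8 and MOD 7 at 56.0. At the other end were MOD 9 at 0.072 (1 read), HI 3 at 0.482 (6 reads) and MOD 11 at 0.915 (12 reads). These 3 libraries were separated from the rest, as the fourth lowest, MOD 14, stood at 4.75.

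Prolactin message, the product of lactotrophs, spread wider still. In the HI calves, PRL ranged from 0.401 to 202 with a median of 22.9 and a mean of 38.3 ± 50.9 (SD, n = 14). In the MOD calves, it ranged from 0 to 60.7 with a median of 31.1 and a mean of 28.0 ± 18.6 (SD, n = 15). HI 9 again stood highest, at 202 (2688 reads), and was 2.84 times the next library, HI 2 at 71.1. The HI mean lay above the MOD mean only with that calf, and without HI 9 it was 25.7 ± 20.2 (SD, n = 13). The 3 lowest were again MOD 9, with 0 reads (one-sided upper limit 0.217), HI 3 at 0.401 (5 reads) and MOD 11 at 1.07 (14 reads). The fourth lowest was HI 13 at 4.29.

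**Figure D1:**
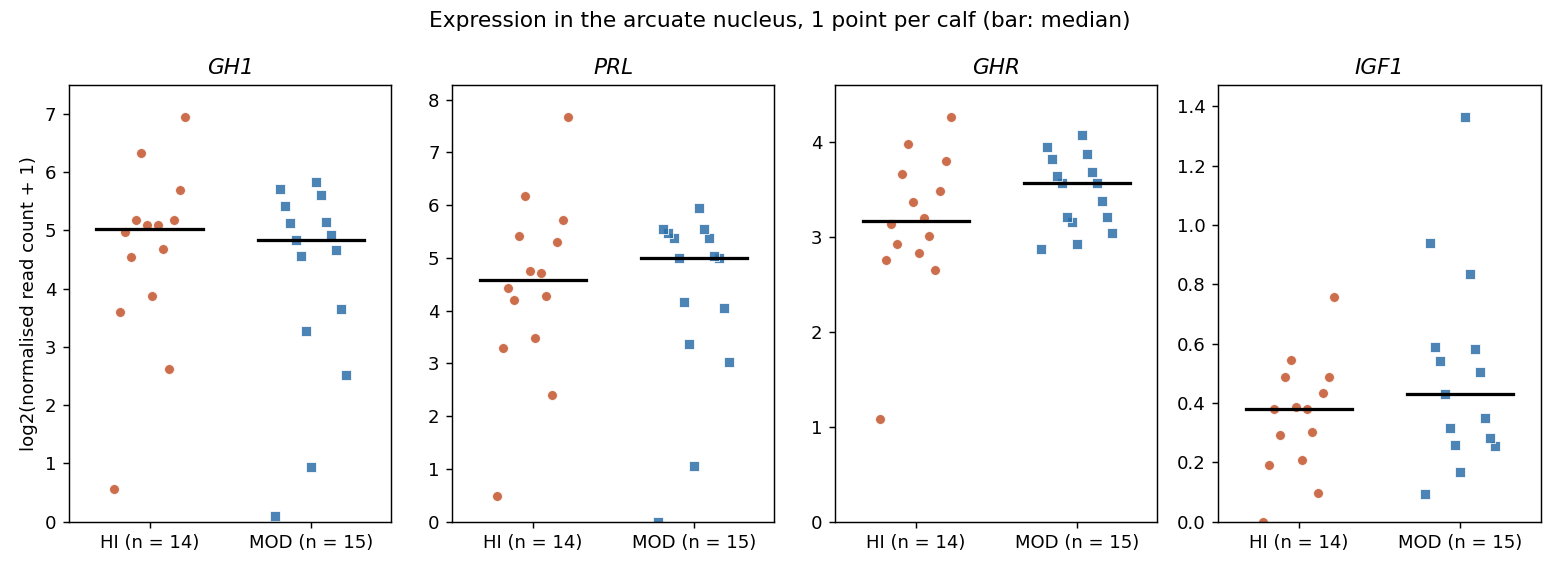
Level of GH1, PRL, GHR and IGF1 in each calf, as log2(normalised read count + 1) on the vertical axis, with HI (n = 14) and MOD (n = 15) side by side in each panel; each point is 1 library and the bar is the median of the diet. GH1 and PRL run from near 0 in HI 3, MOD 9 and MOD 11 to HI 9 at the top, HI 9 is alone at the bottom of the GHR panel, and the diets overlap in every panel.

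Both hormones were among the most variable genes in the table. The standard deviation of log2(value + 1) over the 29 calves was 1.66 for GH1 and 1.71 for PRL, larger than in 99.8% of the 14165 genes that passed a filter on low values (a value above 1 in at least 14 libraries). Several other hormone and neuropeptide genes varied more on this scale, among them CGA (1.81), AGRP (1.86), NPY (2.03), PMCH (1.95) and OXT (3.75). The coefficient of variation was 83.4% for GH1 and 114% for PRL. The middle of the distribution was wide as well as its ends, with an upper quartile 3.06 times the lower for GH1 and 4.10 times for PRL. Together they took at most 0.026% of the reads counted in genes in a library.

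The receptor was far more even. GHR, the cell-surface receptor for growth hormone, ranged in HI calves from 1.13 to 18.2 with a median of 8.00 and a mean of 8.95 ± 4.39 (SD, n = 14). In MOD calves it ranged from 6.36 to 15.9 with a median of 10.9 and a mean of 10.5 ± 3.005 (SD, n = 15). HI 9 was alone at the bottom, at 1.13 (15 reads, interval 0.63 to 1.86), and the next lowest was HI 6 at 5.28. HI 9 was therefore the calf with the highest values of both hormones and the lowest of the receptor. The highest GHR values were in HI 14 at 18.2, MOD 4 at 15.9 and HI 4 at 14.9. The standard deviation of log2(value + 1) was 0.609, larger than in 90.1% of the tested genes, and the coefficient of variation was 49.0% in HI and 28.8% in MOD.

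IGF1, the growth factor induced by growth hormone in the liver, was barely sequenced in the ARC. The 29 libraries held 156 IGF1 reads in all, 55 in HI and 101 in MOD, with a median of 4 reads in an HI library and 6 in a MOD library. In HI calves the value ranged from 0 to 0.692 with a median of 0.301 (mean 0.288 ± 0.175, SD, n = 14). In MOD calves it ranged from 0.067 to 1.57 with a median of 0.347 (mean 0.454 ± 0.389, SD, n = 15). MOD 1 was highest at 1.57 (23 reads), followed by MOD 11 at 0.915 (12 reads), and HI 13 had 0 reads. A single library exceeded 1, so IGF1 did not pass the filter on low values and was tested in a fit over the 19929 genes with at least 1 read. Most of its differences between single calves are of a few reads.

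Plane of nutrition was not associated with a detectable difference in any of the 4 genes. With limma on log2(value + 1) and Benjamini-Hochberg adjustment over all genes tested, 0 of the 3 genes that passed the filter were called (adjusted p below 0.10 and a fold change above 1.5), nor was IGF1 in its own fit. The background was the same, as limma called 0% of the 14165 tested genes. At an unadjusted p below 0.05 it took in 797 of them (5.63%), of which those higher in HI made up 3.33% of the tested genes, and it took in 0 of the 4 genes. The edgeR exact test and DESeq2, run on reads recovered from the values, each called 1 gene, which was none of the 4. The study itself reported far more genes differing between the diets in the ARC with the exact test, among them AGRP, NPY, POMC and CGA. The reason for this gap was not tested.

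GH1 was 0.44 higher in HI than in MOD on the log2 scale (SE 0.587, 95% interval -0.757 to 1.64, adjusted p = 0.757 by limma). Over the samples alone, the two-sided permutation test gave p = 0.489. The 3 libraries with almost no hormone message set much of this difference, which was 0.19 without them, 0.15 without MOD 9 alone and 0.75 without HI 3 alone. Of the HI calves, 8 of 14 lay above the MOD median.

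PRL differed by 0.19 (SE 0.61, interval -1.06 to 1.43, adjusted p = 0.905 by limma, permutation p = 0.775), and its direction rested on single calves. It became -0.06 without HI 9, -0.12 without MOD 9, -0.04 without MOD 11 and 0.49 without HI 3. The medians ran the other way from the means, and 5 of 14 HI calves lay above the MOD median. The interval of PRL reached beyond a log2 difference of 1 in both directions, and that of GH1 on the upper side, so that large differences were within what these calves allow.

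GHR was 0.31 lower in HI than in MOD on the log2 scale (difference -0.31, SE 0.213, interval -0.749 to 0.122, adjusted p = 0.63 by limma, permutation p = 0.173). Without HI 9 the difference shrank to -0.15, and without HI 9 and HI 13 it was -0.14. Within the 20 libraries above the division on the second component it was -0.38, and within the 9 below it was -0.25, neither of them called. Of the HI calves, 4 of 14 lay above the MOD median. Among all tested genes, 23.8% had a smaller p than GHR.

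For IGF1, the difference was -0.15 on the log2(value + 1) scale (SE 0.099, interval -0.349 to 0.055, adjusted p = 0.71 by limma, permutation p = 0.165), a scale that understates changes at so low a level. On the recovered reads, the edgeR quasi-likelihood test put IGF1 1.57-fold lower in HI (adjusted p = 0.67). MOD 1 carried 23 of the 101 MOD reads, and without it the limma difference was -0.09. HI values exceeded the MOD median in 5 of 14 calves.

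**Figure D2:**
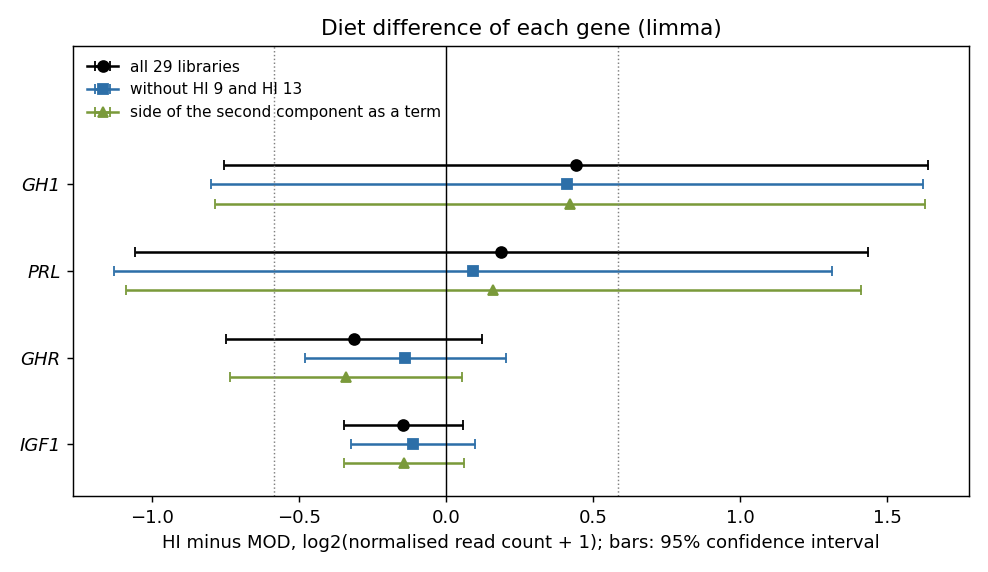
Difference between the diets for each gene, HI minus MOD, in log2(normalised read count + 1), with 95% confidence intervals from limma. Circles use all 29 libraries, squares leave out HI 9 and HI 13, triangles carry the side of the second component as a term, and dotted lines mark a 1.5-fold change; every interval crosses 0, and the hormone intervals are the widest.

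GH1 and PRL rose and fell together from calf to calf. Because HI 3, MOD 9 and MOD 11 lay apart at the bottom for both genes, the relation was also read without them, and in the remaining 26 calves Spearman's rho was 0.518 (permutation p = 0.00702, adjusted over 6 pairs 0.0421) and Pearson's r of log2(value + 1) was 0.78 (permutation p = 1e-05, adjusted 6e-05, where 1e-05 is the smallest that the permutations can give). Over all 29 calves rho was 0.653 (p = 0.00015, adjusted 0.0009) and r was 0.917 (p = 1e-05, adjusted 6e-05). Leaving out the 2 calves farthest from the GH1 median, HI 3 and MOD 9, gave r = 0.849 and rho = 0.57. Without HI 9 and HI 13, rho was 0.571 (adjusted p = 0.0134).

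The relation was looked for within each diet as well. It held in HI calves (rho = 0.705, adjusted p = 0.0394, permutation test), whereas in MOD calves the adjusted p was 0.0889 (rho = 0.568). Without the 3 low libraries the values were 0.632 in HI (adjusted p = 0.138) and 0.335 in MOD (adjusted p = 0.395), with 13 calves each, so that within MOD the rank relation rested on MOD 9 and MOD 11. The corresponding Pearson coefficients were 0.861 in HI (adjusted p = 0.00168) and 0.683 in MOD (adjusted p = 0.0666). The difference between the diets in this relation was not tested. Above the division on the second component rho was 0.734 (n = 20, adjusted p = 0.00312), and below it 0.417 (n = 9, exact permutation p = 0.27).

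In the 28 calves with more than 3 reads of both hormones, the ratio of PRL to GH1 varied less than either hormone did. Its log2 had a standard deviation of 0.734, against 1.76 for GH1 and 1.82 for PRL on the same scale. Without HI 3 and MOD 11 the values were 0.760 for the ratio, 1.11 for GH1 and 1.19 for PRL (n = 26), which restates the correlation above in another form. The ratio ran from 0.406 in MOD 3 to 2.67 in MOD 15, with a median of 0.914. Its height has no meaning, since the genes differ in length, but its range shows that calves still differed several-fold in the balance of the hormones.

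**Figure D3:**
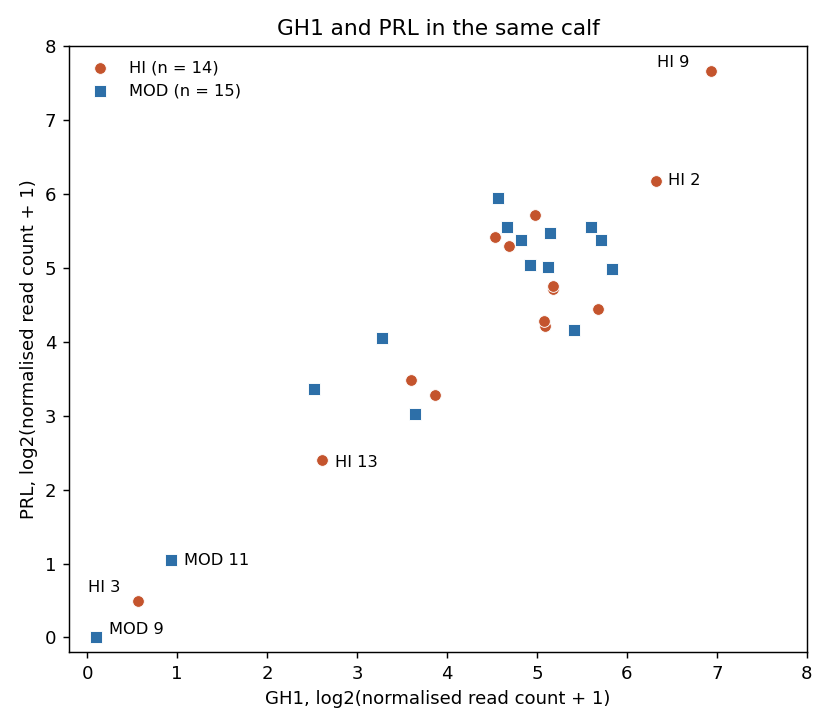
PRL (vertical) against GH1 (horizontal) in the same calf, both as log2(normalised read count + 1), circles for HI (n = 14) and squares for MOD (n = 15). The points run from MOD 9, HI 3 and MOD 11 near the origin to HI 2 and HI 9 at the upper right, with both diets along the whole course.

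Each hormone was among the closest partners of the other in the table. Of 14164 other genes ranked by Spearman's rho over the 29 calves, GH1 came first for PRL, and PRL came 4th for GH1. By the size of rho whatever its sign, these ranks were 1 and 5, and of the 116 genes with an absolute rho of at least 0.5 with GH1, 78 were inverse. Such values were rare, since an absolute rho of at least 0.5 was reached by 0.819% of genes with GH1 and by 0.289% with PRL. The 2 genes nearest to GH1, which the sources used here do not name, were ENSBTAG00000001638 (rho 0.708) and ENSBTAG00000022120 (rho 0.707), and these were also the closest to PRL after GH1 (0.573 and 0.645 respectively). ENSBTAG00000001638 had 0 reads in HI 3, MOD 9 and MOD 11, the same calves in which both hormones were lowest, and at most 4.49 elsewhere. ENSBTAG00000022120 was 0.229 in MOD 11, 0.361 in MOD 9 and 0.722 in HI 3, with MOD 14 at 0.699 between the last pair, and reached 6.33. At the upper end, the 8 highest libraries of both genes were HI 1, HI 2 and MOD 1 to MOD 6. For ENSBTAG00000001638 these held 2.77 or more, and the next was MOD 7 at 1.66. Together with HI 3, they have the lowest calf numbers of the series. HI 9, highest for both hormones, held 1.28 and 2.70 of the 2 genes. A part of calf order in these correlations was not tested.

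No correlation of either hormone with the receptor or with IGF1 passed its test. The rank correlation with GHR was 0.015 for GH1 (permutation p = 0.939) and -0.022 for PRL (p = 0.911). With IGF1 it was -0.301 for GH1 (p = 0.112, adjusted 0.336; -0.618 in MOD, adjusted 0.0889, and 0.165 in HI, adjusted 0.868) and -0.171 for PRL (p = 0.374). GHR and IGF1 had a rho of 0.125 (p = 0.52). Pearson's r for these 5 pairs lay between -0.236 and 0.063. The IGF1 values are too sparse for a weak correlation to be read either way.

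Markers of pituitary tissue were then set beside the hormones. Of a list of 15 pituitary genes, 5 could be identified, GH1 and PRL themselves, the glycoprotein hormone subunit CGA, POMC and the granule protein CHGA. CGA was lowest in the same 3 libraries as GH1 and PRL, at 0.803 in HI 3, 0.458 in MOD 11 and 0.433 in MOD 9. Its rank correlation was 0.52 with GH1 (permutation p = 0.00405, adjusted over 64 pairs 0.0518) and 0.354 with PRL (p = 0.0594, adjusted 0.348), and Pearson's r was 0.105 and 0.108. Without the 3 low libraries rho was 0.334 with GH1 (p = 0.0961) and 0.104 with PRL (p = 0.613). Without HI 9 and HI 13 it was 0.606 with GH1 (r = 0.423) and 0.41 with PRL (r = 0.446). Above the division rho with GH1 was 0.362 (n = 20), and below it 0.967 (n = 9).

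The libraries with the most CGA were of 2 kinds. CGA reached 998 in HI 13 and 54.6 in MOD 13, where GH1 was 5.12 and 8.71 and PRL 4.29 and 15.6, below the median of each hormone. It was 13.4 in HI 2 and 10.6 in HI 9, the calves highest for both hormones, against a median of 2.71. Summed over CGA, POMC and CHGA, the level in HI lay between 215 and 2595, with HI 13 highest, and in MOD between 228 and 425. By median over all calves, CHGA was the largest part at 279, against 38.6 for POMC and 2.71 for CGA. POMC is also an ARC marker, so the sum cannot be read as a level of pituitary tissue. POMC had a rho of 0.234 with GH1 and 0.186 with PRL, and CHGA of -0.008 and -0.001. The part of pituitary tissue in the GH1 and PRL values was not tested.

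GHR, in contrast, moved with a broad part of the transcriptome. An absolute rho of at least 0.5 with GHR was found for 32.3% of the other tested genes, and of at least 0.7 for 11.4%, against 0.0212% for GH1 and 0% for PRL. The 3 genes most like GHR had a rho of 0.933, 0.907 and 0.906. Its level differed between the sides of the division on the second component. The median was 11.2 in the 20 libraries above and 6.62 in the 9 below, none of which exceeded 8.27. All 9 also scored negative on the first component. So did HI 9 (-124.5) and HI 13 (-62.9), which lay above the division (23 and 41.7) and did not exceed 8.27 either. The calves with the highest GHR, HI 14 and MOD 4, scored 24.5 and 25.5 on the first component. The difference therefore cannot be assigned to the second component alone. For GH1 the medians were 26.0 and 30.4. GHR entered both components itself, as 1 of the 14165 genes, and its relation to them was not tested.

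Of the named genes, GHR was most strongly related to CLDN5, a tight-junction protein of brain endothelium, and the relation was inverse (rho = -0.813, r = -0.887, permutation p = 1e-05, the smallest the permutations can give, adjusted over 64 pairs 0.00064). It remained without the 2 calves farthest from the GHR median (r = -0.724) and without HI 9 and HI 13 (rho = -0.8), and was -0.807 in HI, -0.821 in MOD, -0.707 above the division and -0.75 below it. CLDN5 was highest in HI 9 at 264, with HI 13 next at 105, and lowest in HI 14 at 35.0, the calf with the highest GHR. An absolute rho of at least 0.8 with GHR was reached by 3.88% of tested genes, so that CLDN5 was 1 of 550 at that height. CLDN5 was 0.40 higher in HI on the log2 scale (adjusted p = 0.63 by limma), and its part in the GHR difference between diets was not tested.

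GHR also followed the peptides of the hunger neurons. With AGRP rho was 0.732 (r = 0.593, permutation p = 3e-05, adjusted 0.00096), and with NPY, neuropeptide Y, it was 0.69 (r = 0.575, p = 8e-05, adjusted 0.00171). Leaving out the 2 calves farthest from the GHR median gave r = 0.69 with AGRP and r = 0.698 with NPY. Within diets rho with AGRP was 0.722 in HI and 0.75 in MOD, and with NPY 0.732 and 0.771. Both peptides were higher above the division, as GHR was, with medians of 4.35 above and 0.072 below for AGRP and 18.8 and 1.75 for NPY. Above the division rho was 0.642 with AGRP and 0.638 with NPY (n = 20), and below it 0.458 and 0.3 (n = 9). NKX2-1, a transcription factor of the ventral hypothalamus, had a rho of 0.548 with GHR (adjusted p = 0.0368, permutation test), and of 0.185 above and 0.15 below the division. The other identified ARC markers also had a positive rho with GHR, 0.405 for POMC, 0.409 for CARTPT and 0.416 for PDYN (adjusted p = 0.216 each, permutation test). Without HI 9 and HI 13 these were 0.584, 0.437 and 0.454. The identified markers of other hypothalamic neurons went both ways. Over all calves rho with GHR was 0.333 for OXT, 0.273 for AVP, -0.233 for HCRT and -0.347 for PMCH (adjusted p at least 0.348, permutation test). In MOD it was 0.789 for OXT, above AGRP and NPY, and 0.696 for AVP, against 0.099 and 0.037 in HI. Ranked by rho with GHR among 14164 genes, AGRP came 629th and NPY 892nd.

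**Figure D4:**
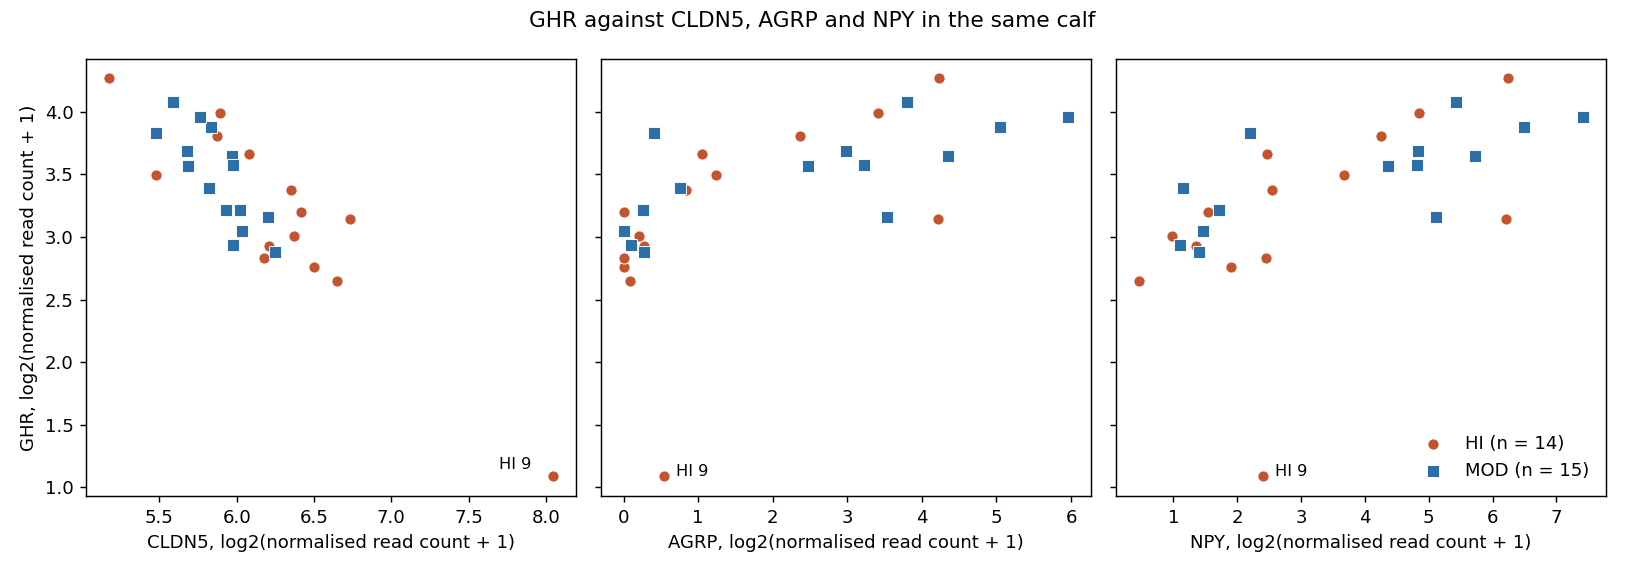
GHR (vertical) against CLDN5, AGRP and NPY (horizontal, 1 panel each) in the same calf, all as log2(normalised read count + 1), circles for HI and squares for MOD. GHR falls as CLDN5 rises, is higher where AGRP and NPY are higher, and is lowest in HI 9, which lies apart in each panel.

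The hormones had weak rank correlations with the hunger peptides. With AGRP rho was 0.164 for GH1 and 0.023 for PRL, and with CLDN5 0.14 and 0.012. IGF1 had its highest rank correlation among the named genes with PMCH, melanin-concentrating hormone of the lateral hypothalamus (rho = 0.41, permutation p = 0.028, adjusted 0.216). An absolute rho of at least 0.5 with IGF1 was found for 1.28% of genes.

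**Figure D5:**
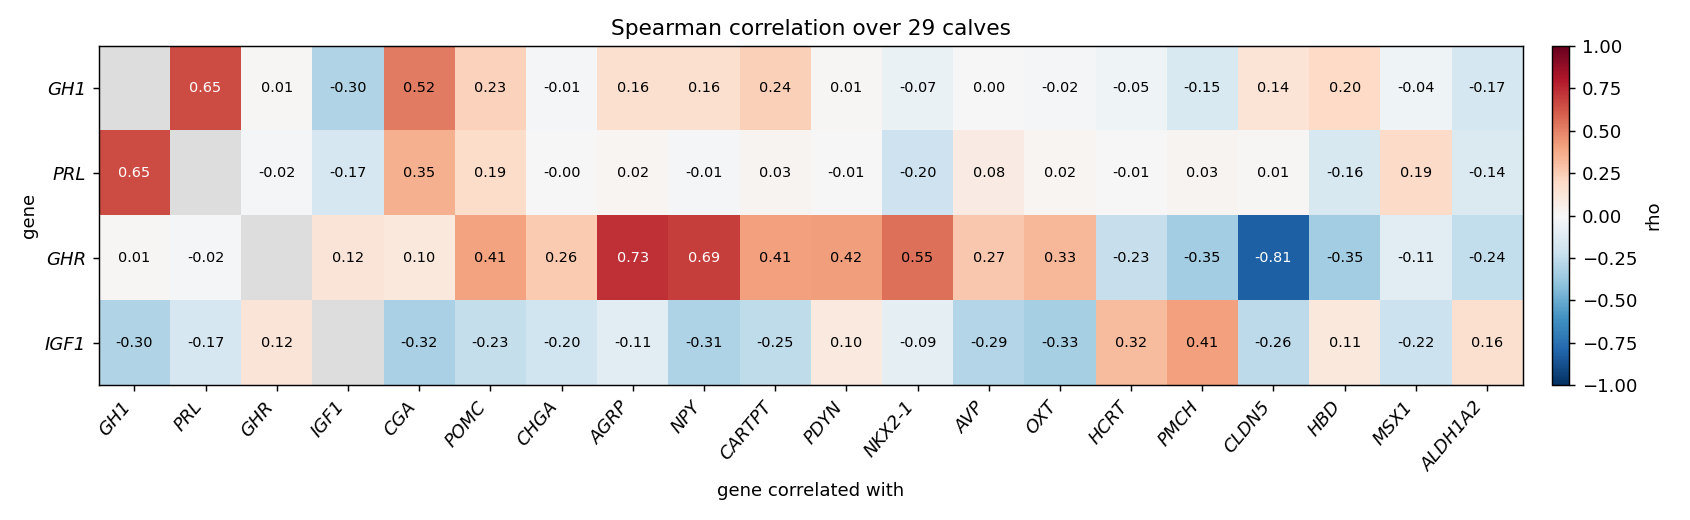
Spearman's rho over 29 calves of GH1, PRL, GHR and IGF1 with each other and with 16 named genes, on a colour scale from -1 to 1. The strong cells are GH1 with PRL (0.653) and GHR with CLDN5 (-0.813), AGRP (0.732) and NPY (0.69).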

How the data were processed

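By the submitters' processing notes, the authors checked reads with FastQC 0.11.8, trimmed them with cutadapt 2.6, aligned them to UMD3.1 with STAR 2.6.1, counted reads per gene and normalised with the trimmed mean of M-values in edgeR. The methods of the study give other versions of FastQC and STAR. The deposited signal was not raw counts but reads divided by effective library size. Of its nonzero values, 100.0% were whole multiples of 1 read (tolerance 0.01), and reads were recovered on that basis. The edgeR exact test of the study was therefore an alternative, and limma 3.58.1 in R 4.3.3 (lmFit, eBayes with trend) on log2(value + 1) the main test. Diets and correlations were also tested over samples by two-sided permutation with 100000 resamples (exact for 9 calves). Correlation p-values were adjusted over 6 pairs of genes, or over 64 pairs with named genes. Read counts of each of 196 within-diet pairs differed beyond sampling noise (chi-square per degree of freedom at least 8.55), so that none duplicated another of its diet. In 1 column name the calf number ended in another letter, and the column was used as that calf's library. All 29 columns were used.

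The 4 genes and all gene lists were chosen with earlier results of these data known. Genes were named by rule as the 4 genes, members of the lists, and the 3 genes most like each of the 4, with at most 2 unnamed identifiers printed. Of the identifiers, 0 matched the RefSeq table of the ARS-UCD2.0 assembly. The names of 16 other genes came from gene lists of the study, most of them chosen on these or the same calves' samples. By list, 5 of 15 pituitary genes could be identified, 6 of 10 of the ARC, 4 of 6 of other hypothalamic neurons, 2 of 5 of vessels and blood, 2 of 2 of meninges, 0 of 29 of the growth hormone axis and 0 of 8 of the prolactin axis, so the axis lists were not evaluated. Alternatives were other pseudocounts (0.1 and 0.5), filters, size factors, edgeR 4.0.16, DESeq2 1.42.0, voom, and subsets of libraries. The scripts were tested on simulated data.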

Additional observations from a re-analysis of the deposited data

How the results depend on the processing

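No diet difference of GH1, PRL, GHR or IGF1 was called under any alternative run, with adjusted p, calves left out in turn included, from 0.515 to 1 for GH1, 0.727 to 1 for PRL, 0.474 to 1 for GHR and 0.595 to 1 for IGF1 (no value with a filter at 5). The number of genes called was 1 with the edgeR exact test (918 at an unadjusted p below 0.05) and 1 with DESeq2 (1032), and 0 otherwise. Below the division on the second component the difference turned to -0.192 for GH1 and -0.249 for PRL, and without HI 3, MOD 9 and MOD 11 that of PRL was -0.083. Leaving out 1 calf at a time gave 0.151 to 0.75 for GH1, -0.117 to 0.492 for PRL, -0.399 to -0.154 for GHR and -0.178 to -0.086 for IGF1, and 0 genes called in all 29 fits (458 to 1321 at an unadjusted p below 0.05).

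The rho of GH1 with PRL lost its call at 0.568 in MOD alone, 0.417 below the division, and 0.632 in HI and 0.335 in MOD without the 3 low calves, and ran from 0.614 to 0.695 with 1 calf left out. Pairs that never passed changed sign as follows. GH1 with GHR was -0.046 in HI, -0.146, -0.187 in HI and -0.17 in MOD without the 3 low calves, and -0.136 without HI 3 and MOD 9. GH1 with IGF1 was 0.165 in HI and 0.335 there without HI 3, against -0.618 in MOD and -0.783 below the division. PRL with GHR was 0.021 with library size alone, 0.043 without HI 9 and HI 13, 0.007 in HI and 0.233 below the division, against -0.544 in MOD without the low calves. PRL with IGF1 was 0.226 in HI, 0.429 there without HI 3, and 0.043 without the 3 low calves, against -0.511 in MOD. GHR with IGF1 was -0.2 in MOD. With 1 calf left out the ranges were -0.066 to 0.128, -0.404 to -0.238, -0.11 to 0.087, -0.263 to -0.095 and 0.062 to 0.213 in the same order. The causes of these changes were not tested.

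Diet fits on either side of the division, and all values without HI 3, MOD 9 and MOD 11 or without the calves farthest from a median, were chosen after seeing the data. The study blocked its calves on age, body weight, sire and farm before diets were assigned at random. The labels do not give these blocks, nor numbers shared between the diets, so no paired or blocked analysis was possible and every diet test ignored the blocks. At 156 reads in all, depth limits what can be said of IGF1.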

Other observations

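The 3 calves with almost no GH1 and PRL message were high in PMCH, the melanin-concentrating hormone of the lateral hypothalamus. PMCH was 1021 in MOD 11, 818 in MOD 9 and 642 in HI 3, which ranked 2, 3 and 5 of the 29 calves, while the median was 205. The highest PMCH, 1859, was in HI 9, the calf with the most GH1 and PRL. At the upper end of the hormone range this rests on that 1 calf. Over all 29 calves rho with PMCH was -0.151 for GH1 and 0.028 for PRL. The diets differed in sign, with 0.398 in HI and -0.593 in MOD for GH1, and 0.486 and -0.364 for PRL. Without the 3 low calves rho was 0.112 for GH1 and 0.359 for PRL. The PMCH pattern was seen after the values were examined, and no test was made of it.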
